A study of Mus musculus with 6 samples.

Results

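The ATP-binding cassette (ABC) transporter genes of the mouse were followed through mammary epithelial cell populations sorted from virgin glands. The genes were taken as every non-control feature of the array whose gene symbol runs from Abca to Abcg with a number, with the brightest probe standing for a gene. This gave 49 genes of 27962 on the array. Of these, 44 were tested, because their probe was well above background in the sample channel on at least 2 of the 6 arrays, and so were 25063 genes in all. Abca4, Abca15, Abca16, Abcb5 and Abcc10 were left untested as too dim. Of the 44 genes, 39 were well above background on all 6 arrays and 5 were not (Abca9, Abca17, Abcb1a, Abcc9 and Abcc12). The 49 genes had 93 probes, and 30 genes had more than 1 probe. In the array's build, mm7, the Abca3 probe lies on chromosome 17 from 22590968 to 22591026, the Abcb1b probe on chromosome 5 from 8903569 to 8903628, the Abca7 probe on chromosome 10 from 79795508 to 79795567 and the Abcg2 probe on chromosome 6 from 58658701 to 58660383. A gene annotation of that build, to place them in exons or UTRs, was not used here.

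The samples were 6 RNA preparations from virgin C57/B6 mice, 1 array for each combination of 3 populations and 2 genotypes. The genotypes were heterozygous for a DNP63 knockout (het), DNP63 being the p63 isoform class without the N-terminal transactivation domain, and wild type (WT). P4 is the CD24+CD29hi fraction, labelled as enriched for mammary stem cells. P5 is the CD24+CD29lo fraction, labelled as enriched for luminal progenitors. MEC stands for total mammary epithelial cells without enrichment. The sample was labelled with Cy5 and co-hybridised with Universal Mouse Reference RNA in Cy3, which pools RNA of 11 mouse cell lines, so every value is log2 of sample over reference. The labels do not say whether an RNA came from 1 mouse or a pool, and no group had a replicate. Trp63, the gene of p63, was at 5.29 in het P4 and 4.41 in WT P4, at 0.89 in het P5 and 0.46 in WT P5, and at 2.65 in het MEC and 2.78 in WT MEC. Trp63 therefore did not mark the het arrays, and whether its probe lies in the deleted part is not given in the sources used here, so het and WT name the arrays as labelled. In P4 against P5, all 8 basal and myoepithelial markers were higher and 8 of 9 luminal markers lower at an adjusted p below 0.05. These lists set basal against luminal cells and do not test the labelled enrichment of stem cells or luminal progenitors. The mean level of 7 fibroblast markers on the 6 arrays was -1.15 in het P4, -1.58 in WT P4, -2.02 in het P5, -2.94 in WT P5, 1.36 in het MEC and 2.10 in WT MEC, and 5 of 7 were called lower in P4 and 6 of 7 in P5 against MEC. In bulk RNA, fewer cells of a type and less RNA per cell cannot be told apart.

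ABC proteins bind and hydrolyse ATP at paired nucleotide-binding folds, and most use that energy to move a substrate across a membrane. Members of subfamilies A and G move sterols and phospholipids, several members of B, C and G expel drugs and conjugated metabolites, and subfamily D imports fatty acyl compounds into peroxisomes. ABCE1 and the ABCF proteins carry no membrane spans and act at the ribosome. In the mammary gland ABCG2 is known for concentrating drugs, riboflavin and other compounds into milk. Abcg2 and the Abcb1 genes are also those whose dye efflux defines the side population used to enrich stem cells in several tissues.

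Abcb1a, Abcb1b and Abcb4 follow each other on chromosome 5, with no coding gene between them in the RefSeq annotation, and encode the drug efflux pumps P-glycoprotein 1a and 1b and the phosphatidylcholine floppase of the canalicular membrane. Abcb1b and Abcb4 rose in P4 against P5, whereas Abcb1a was not above background on any sorted array. The RefSeq windows from 250 bases before to 50 after the gene starts, GRCm38.p6, are shown for these 3 neighbours and for Abca3, the gene with the largest called fall in P4. Capitals mark the GC box (letters GGGCGG), the CAAT box (letters CCAAT) or the p53-family decamer consensus, each searched on both strands, with no overlap between them here.
Abcb1a, chr5:8566841-8567140, plus strand: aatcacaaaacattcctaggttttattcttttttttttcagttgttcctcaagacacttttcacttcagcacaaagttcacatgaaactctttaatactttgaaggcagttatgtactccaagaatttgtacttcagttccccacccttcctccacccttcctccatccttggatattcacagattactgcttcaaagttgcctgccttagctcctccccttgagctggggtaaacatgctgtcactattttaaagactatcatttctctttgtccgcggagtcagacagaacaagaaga
Abcb1b, chr5:8797897-8798196, plus strand: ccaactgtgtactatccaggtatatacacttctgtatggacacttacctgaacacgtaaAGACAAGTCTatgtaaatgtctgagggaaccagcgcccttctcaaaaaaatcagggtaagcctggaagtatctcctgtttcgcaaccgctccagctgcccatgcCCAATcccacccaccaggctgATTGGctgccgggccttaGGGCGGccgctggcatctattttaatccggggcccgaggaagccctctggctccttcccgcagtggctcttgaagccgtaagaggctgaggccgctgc
Abcb4, chr5:8893471-8893770, plus strand: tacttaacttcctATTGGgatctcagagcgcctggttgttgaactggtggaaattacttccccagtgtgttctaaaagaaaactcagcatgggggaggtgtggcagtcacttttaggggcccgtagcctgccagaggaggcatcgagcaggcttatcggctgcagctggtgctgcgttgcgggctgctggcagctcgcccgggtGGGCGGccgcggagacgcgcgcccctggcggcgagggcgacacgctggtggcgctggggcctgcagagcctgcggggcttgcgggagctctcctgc
Abca3, chr17:24351773-24352072, plus strand: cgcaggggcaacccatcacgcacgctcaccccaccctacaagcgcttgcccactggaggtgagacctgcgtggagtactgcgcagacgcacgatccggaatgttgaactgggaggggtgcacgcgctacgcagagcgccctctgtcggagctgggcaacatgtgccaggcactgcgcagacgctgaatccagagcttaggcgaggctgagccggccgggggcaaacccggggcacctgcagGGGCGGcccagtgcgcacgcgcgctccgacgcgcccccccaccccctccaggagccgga
The Abcb1a window held no match. The Abcb1b window held GGGCGG at bases 203 to 208, CCAAT at bases 164 to 168 and its reverse complement at 185 to 189, and the decamer at 60 to 69, counted from 1 at the 5′ end. The Abcb4 window held GGGCGG at 205 to 210 and the reverse complement of CCAAT at 14 to 18, and the Abca3 window held GGGCGG at 242 to 247. GGGCGG occurred in 35.7%, CCAAT in 37.4% and the decamer in 8.36% of all 32851 windows. A match is a description of these letters and no evidence of binding. RefSeq windows were matched for 37 of the 49 genes.

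**Figure D1:**
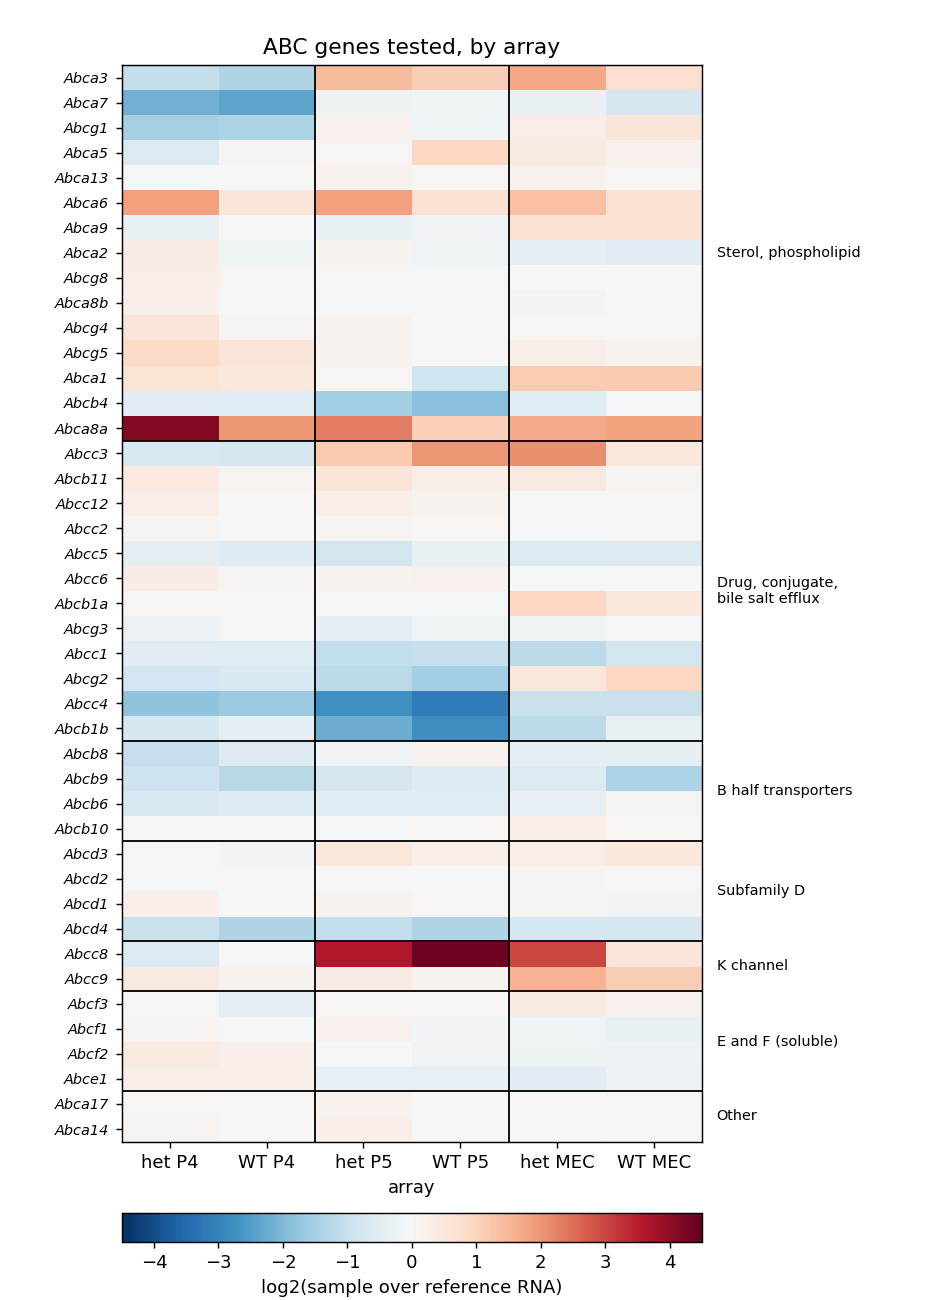
Log2(sample over reference RNA) of the tested ABC genes reported here (rows, grouped by role and ordered within a role by P4 minus P5) on the 6 arrays (columns, het left of WT within each population). Abcc8 is near or below 0 on both P4 arrays and between 3.01 and 4.37 on the P5 and het MEC arrays, and Abcg2 is above 0 only on the MEC arrays.

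P4 was first compared with P5, which sets the fraction higher in basal markers against the one higher in luminal markers on 4 arrays of slide 1. The fit took its SEs from all 6 arrays, so the MEC arrays enter them too. Of the 44 genes, 8 passed the test, limma's moderated test with Benjamini-Hochberg adjustment over all 25063 genes at a threshold of 0.05. Over all genes tested 10.6% were called, and nothing particular to the family is drawn from its count. Higher in P4 were 4 (Abcb1b, Abcc4, Abcb4 and Abcg5) and lower were 4 (Abca3, Abca7, Abcg1 and Abcb8), beside 5.05% of all genes higher and 5.56% lower. The median difference was 0.01 on the log2 scale, against 0.04 for all genes tested. With all 6 arrays, 17 of the 44 ABC genes and 6679 of all 25063 genes had an unadjusted p below 0.05 in limma. Leaving out any 1 of the 4 sorted arrays left 1 array in a population, and no ABC gene or other gene was then called. Leaving out either MEC array gave 16 ABC genes and 4710 of all 25063 genes. These counts moved over all genes, and nothing particular to the family is read from them. With each array centred on its median in place of loess, 2 genes were called, Abca3 and Abca7.

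Among the sterol and phospholipid transporters, 2 rose and 3 fell in P4, of 15 tested. Abca3, which loads surfactant phospholipid into lamellar bodies in the lung, was at -1.06 in het P4 and -1.36 in WT P4, against 1.43 in het P5 and 1.09 in WT P5. The difference was -2.47 (SE 0.212, adjusted p 0.011), and the P4 and P5 arrays did not overlap. A second Abca3 probe gave -0.94, and 2 dim probes gave 0.02 and -0.08. Abca7, a phospholipid exporter known in macrophages and neurons, was at -2.17 in het P4 and -2.36 in WT P4, against -0.24 in het P5 and -0.21 in WT P5 (difference -2.04, SE 0.169, adjusted p 0.0108). A dimmer Abca7 probe, with a mean raw sample signal of 65.4 against 1990 for the probe used, gave 0.06, and the mean over both gave -0.99 (adjusted p 0.021). By the brighter probe both P4 arrays lay far below the P5 arrays, while the genotypes lay close together within each population.

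Abcg1, which loads sterol onto high-density lipoprotein, was at -1.51 in het P4 and -1.38 in WT P4, against 0.19 in het P5 and -0.20 in WT P5 (difference -1.44, SE 0.198, adjusted p 0.0248). Its partner in sterol efflux, Abca1, which transfers cholesterol and phospholipid to apolipoprotein A1, was at 0.62 in het P4 and 0.48 in WT P4, against 0.08 in het P5 and -0.90 in WT P5. The difference of 0.97 (SE 0.277, adjusted p 0.108) did not pass the test, and Abca1 and Abcg1 lay on opposite sides of 0. Abcb4 was at -0.47 in het P4 and -0.56 in WT P4, against -1.53 in het P5 and -1.87 in WT P5 (difference 1.18, SE 0.221, adjusted p 0.0446), and the mean over its probes was not called (adjusted p 0.0801). Abcg5, which pairs with ABCG8 as the sterol exporter of liver and gut, was at 0.84 in het P4 and 0.56 in WT P4, against 0.16 in het P5 and 0.03 in WT P5 (difference 0.61, SE 0.113, adjusted p 0.0438). Its neighbour and partner Abcg8 differed by 0.17 and was not called (adjusted p 0.468). Of 19 other genes of sterol efflux and its LXR control, 2 were higher in P4 (Apoe by 3.04 and Pltp by 1.30) and Srebf1 was lower (difference -1.12).

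Among the drug and conjugate exporters, 2 of 12 tested rose and none fell. Abcb1b was at -0.79 in het P4 and -0.45 in WT P4, against -2.25 in het P5 and -2.78 in WT P5 (difference 1.90, SE 0.35, adjusted p 0.0432). Abcc4, which exports cyclic nucleotides and prostaglandins, was at -1.81 in het P4 and -1.68 in WT P4, against -2.75 in het P5 and -3.16 in WT P5 (difference 1.21, SE 0.17, adjusted p 0.0256). By these probes both were below the reference RNA on every array, P5 lowest. The other Abcb1b probes gave differences of 0.70 and 0.24. A dimmer Abcc4 probe, above background on all 6 arrays, gave 0.22 and lay at 0.92 in het P4 and 0.04 in WT P4, against 0.78 in het P5 and -0.26 in WT P5. The mean over both Abcc4 probes gave 0.71 and was not called (adjusted p 0.0875).

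Abcc1, an exporter of glutathione conjugates, was at -0.52 in het P4 and -0.54 in WT P4, against -1.12 in het P5 and -1.04 in WT P5. Its difference of 0.56 (SE 0.145, adjusted p 0.089) did not pass the test, and its 3 probes gave 0.48 to 0.59. Abcg2 was at -0.86 in het P4 and -0.67 in WT P4, against -1.22 in het P5 and -1.52 in WT P5, a difference of 0.61 (SE 0.207, adjusted p 0.155). Abcg2 therefore was not shown to differ between P4 and P5. Abcc3, a basolateral exporter of glucuronides, was at -0.68 in het P4 and -0.77 in WT P4, against 1.17 in het P5 and 1.99 in WT P5. Its difference of -2.30 (SE 0.589) missed the threshold (adjusted p 0.0854). That SE includes the MEC arrays, where het minus WT was 1.61, against 0.09 in P4 and -0.82 in P5. The Abcc3 difference passed with the P4 and P5 arrays alone (adjusted p 0.00374) but not with median centring (adjusted p 0.183). Of 17 genes of xenobiotic response and conjugation, Nfe2l2 (1.01), Gstm1 (0.83) and Cyp1b1 (1.46) were called higher in P4 and none was called lower. The largest difference of that list was that of Gclc at -2.08, which narrowly missed the threshold in limma (adjusted p 0.0542).

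The largest difference of the family belonged to Abcc8, the sulphonylurea receptor that regulates ATP-sensitive potassium channels in pancreatic beta cells. Abcc8 was at -0.62 in het P4 and -0.02 in WT P4, against 3.59 in het P5 and 4.37 in WT P5. The difference of -4.30 (SE 0.864) narrowly missed the threshold (adjusted p 0.0515). That SE includes the MEC arrays, where het minus WT was 2.45, against -0.60 in P4 and -0.78 in P5. With the P4 and P5 arrays alone the difference passed (adjusted p 0.000291). The difference also passed with outlier backgrounds replaced, with the scanner's ratio or the series table, and with offset 0. It passed too among genes above background on all 6 arrays. It did not pass with median centring, with the untested dim genes kept in, with the mean over probes or with Cy5 alone. Over all settings, those leaving out an array included, the difference ran from -5.16 to -2.17. The other Abcc8 probe was dim, with a mean raw sample signal of 61.9 against 1690 for the probe used, and gave -0.03. Kcnj11, the pore subunit that pairs with Abcc8, differed by -0.57 (adjusted p 0.146).

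Of the 5 mitochondrial and lysosomal members of subfamily B, Abcb8 was the only one called. Abcb8, a mitochondrial member, was at -1.04 in het P4 and -0.57 in WT P4, against -0.11 in het P5 and 0.16 in WT P5 (difference -0.83, SE 0.153, adjusted p 0.0435), and the mean over its probes, 1 of them above background on no array, was not called (adjusted p 0.11). By the brightest probes the differences of the group ran from -0.83 to -0.02. Another probe of the gene at -0.02, with a mean raw sample signal of 158 against 164, gave -0.87. Of 11 genes of haem and iron-sulphur synthesis 3 were lower in P4, Nfs1 (difference -1.03) and Alad (-0.67) among them, and none higher. None of the 4 peroxisomal and lysosomal subfamily D genes was called, while 3 of 10 peroxisome genes were lower in P4, Hsd17b4 (difference -0.99) and Scp2 (-0.73) among them. Of the 4 soluble ribosome-associated genes none was called, Abce1, which recycles ribosomes, being nearest at 0.62 (SE 0.131, adjusted p 0.0571). Tap1 and Tap2, the ABC peptide transporters of antigen presentation under symbols outside the naming rule, differed by -0.53 and -2.07 and were not called (adjusted p 0.185 and 0.078), while 4 of 12 genes of that pathway were lower in P4 (B2m, Psmb8, Psmb9 and Psme1).

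**Figure D2:**
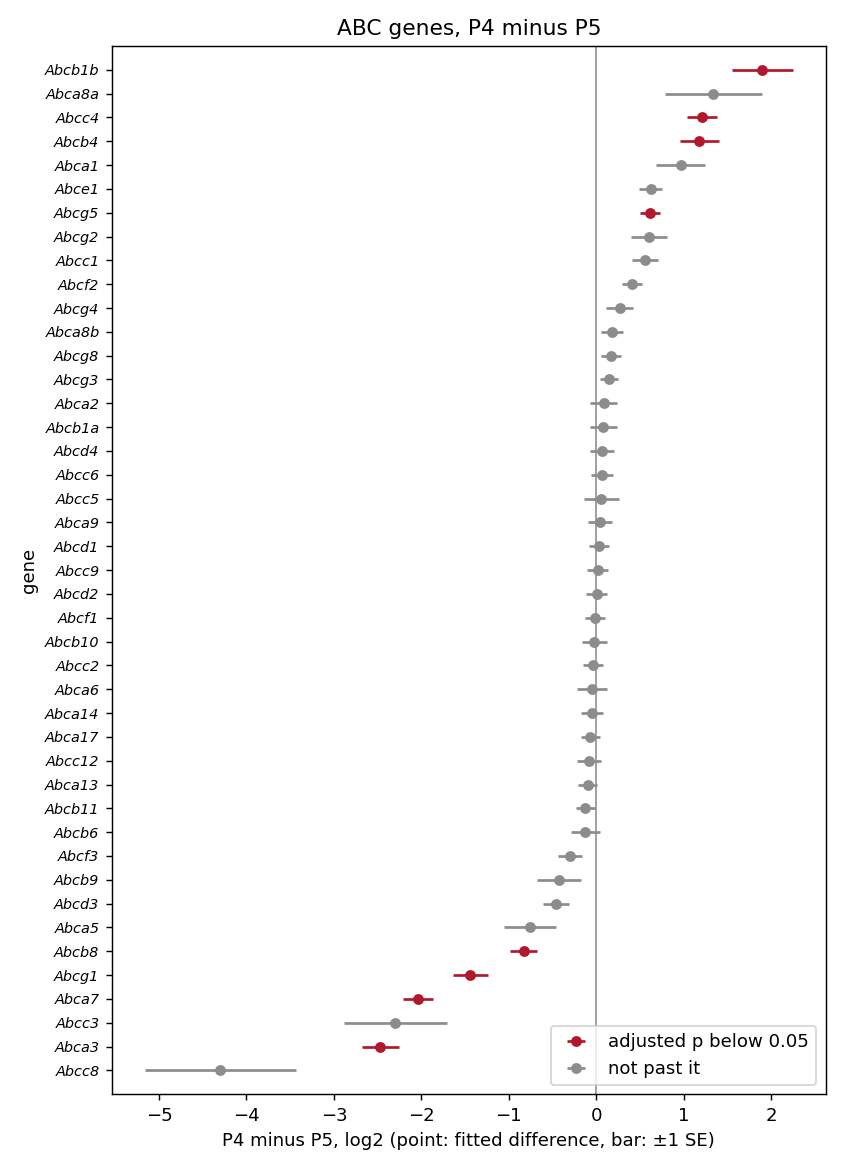
Fitted difference P4 minus P5 on the log2 scale for the tested ABC genes reported here, with bars of 1 SE and called genes in red. Called genes lie on both sides of 0, from Abca3 at -2.47 to Abcb1b at 1.90, and Abcc8 at -4.30 has the widest bar.

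The sorted fractions were then compared with total MEC, which lay on slide 2, and an effect of slide cannot be told apart from one of population. In P4 against MEC 6 of 44 genes were called, all of them lower, beside 7.02% of all genes (4.21% lower and 2.81% higher). In P5 against MEC 4 were called, again all lower, beside 4.17% of all genes (3.16% lower and 1.01% higher). Markers of stroma were lower in the sorted fractions too, 3 of 5 adipocyte markers and 6 of 7 endothelial markers in either comparison, the endothelial ones with a mean level of 0.65 to 1.34 on the sorted arrays and 2.58 to 3.23 on the MEC arrays. On the sorted arrays the endothelial markers Cdh5, Emcn and Cldn5 lay above the reference, at 1.43 to 2.82, 1.04 to 2.45 and 1.79 to 2.85, while Pecam1 was at -0.28 to 0.01. The part of these cells in the results was not tested. With all 6 arrays, 19 ABC genes in P4 and 12 in P5 had an unadjusted p below 0.05 in limma, beside 6558 and 5636 of all 25063 genes. Leaving out any 1 sorted array left no ABC gene or other gene called in either comparison. Leaving out WT MEC gave 13 in P4 and 5 in P5, beside 4196 and 1624 of all 25017 genes, and leaving out het MEC gave 4 in P4 and 7 in P5, beside 1282 and 2103 of 24971. Abcg2 was at -0.86 in het P4, -0.67 in WT P4, -1.22 in het P5 and -1.52 in WT P5, against 0.51 in het MEC and 0.94 in WT MEC. Against MEC it differed by -1.49 in P4 (SE 0.207, adjusted p 0.0357) and by -2.09 in P5 (SE 0.207, adjusted p 0.0222), and all 4 sorted arrays lay below both MEC arrays. Its second probe ran the same way.

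Abcc9, the sulphonylurea receptor of vascular and cardiac muscle, was at 0.39, 0.17, 0.39 and 0.15 in het P4, WT P4, het P5 and WT P5, against 1.55 in het MEC and 1.10 in WT MEC (P4 minus MEC -1.04, adjusted p 0.0286, and P5 minus MEC -1.06, adjusted p 0.0292, SE 0.123 for each). Kcnj8, the pore subunit that pairs with Abcc9 in the vessel wall, was lower too, with differences of -2.49 in P4 and -2.84 in P5 (adjusted p 0.0312 and 0.0276), and also serves as a pericyte marker. The mean over the 3 Abcc9 probes did not pass (adjusted p 0.0601 in P4 and 0.0739 in P5). Abca9 is a member known in macrophages, and its brightest probe was not well above background on any sorted array but was on both MEC arrays. The fit gave adjusted p 0.0444 for P4 and 0.0498 for P5, from differences of -0.85 and -0.90 that rest on dim spots on the sorted side. The other 3 Abca9 probes, each above background on 4 or 5 of the 6 arrays, gave P4 minus MEC of 0.05, -0.05 and -0.10. The mean over probes gave -0.24 in P4 and -0.28 in P5 and was not called (adjusted p 0.247 and 0.211). Abcb1a, the P-glycoprotein of the blood-brain barrier endothelium, has 1 probe, which was well above background only on the MEC arrays. Its differences of -0.63 in P4 and -0.72 in P5 rest on dim spots too and were not called (adjusted p 0.0858 and 0.0833).

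In P4 against MEC, 3 further sterol and phospholipid transporters were lower. Abca3 differed by -2.46 (adjusted p 0.0225), from levels of 1.75 in het MEC and 0.76 in WT MEC, and by -0.75 with the mean over probes, which was not called (adjusted p 0.0584). Abca7 differed by -1.73 (adjusted p 0.0246), from -0.28 in het MEC and -0.80 in WT MEC, and Abcg1 by -1.88 (adjusted p 0.0262), from 0.30 in het MEC and 0.58 in WT MEC. In P5 against MEC the same genes differed by 0.01, 0.32 and -0.44, with adjusted p of 0.989, 0.357 and 0.29. The comparisons share the MEC arrays. In P5, Abcc4 was lower than in MEC by the brighter probe (difference -1.96, SE 0.17, adjusted p 0.019). The dimmer Abcc4 probe gave 0.24, of the opposite sign, and the mean over both gave -0.86 and was not called (adjusted p 0.0874). Abcb1b and Abcb4 in P5 missed the threshold (-1.76, adjusted p 0.0762, and -1.37, adjusted p 0.0527), as did Abca1 at -1.59 (adjusted p 0.0602).

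No ABC gene was called higher in a sorted fraction than in MEC. The uncalled values furthest above 0 in P4 against MEC were those of Abca8a at 1.28 (adjusted p 0.238), Abce1 at 0.64 (adjusted p 0.0646), Abcf2, a ribosome-associated ABCF protein, at 0.55 (adjusted p 0.0674) and Abca2, a lysosomal transporter known in oligodendrocytes, at 0.53 (adjusted p 0.128). In P5 against MEC Abcc8 had the highest value at 2.20, yet with an SE of 0.864 and an adjusted p of 0.238. Its MEC arrays lay 2.45 apart, further than any other ABC gene's. Abcc8 at -2.10 in P4 against MEC did not pass either (adjusted p 0.218), nor did Abcc3 (adjusted p 0.125).

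Several other members were called in no comparison. Abcd4, a lysosomal member needed for cobalamin export, lay between -1.37 and -0.75 on the 6 arrays, and its differences between populations ran from -0.48 to 0.07 with none called. Abcb9, a lysosomal peptide transporter, lay below the reference on every array, from -0.58 in WT P5 to -1.39 in WT MEC. Abcc5, an exporter of cyclic nucleotides, lay between -0.82 and -0.30. Abcd3, which imports fatty acyl compounds into peroxisomes, was at -0.04 in het P4 and -0.11 in WT P4, against 0.51 in het P5 and 0.25 in WT P5, and its difference of -0.46 was not called (adjusted p 0.132).

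**Figure D3:**
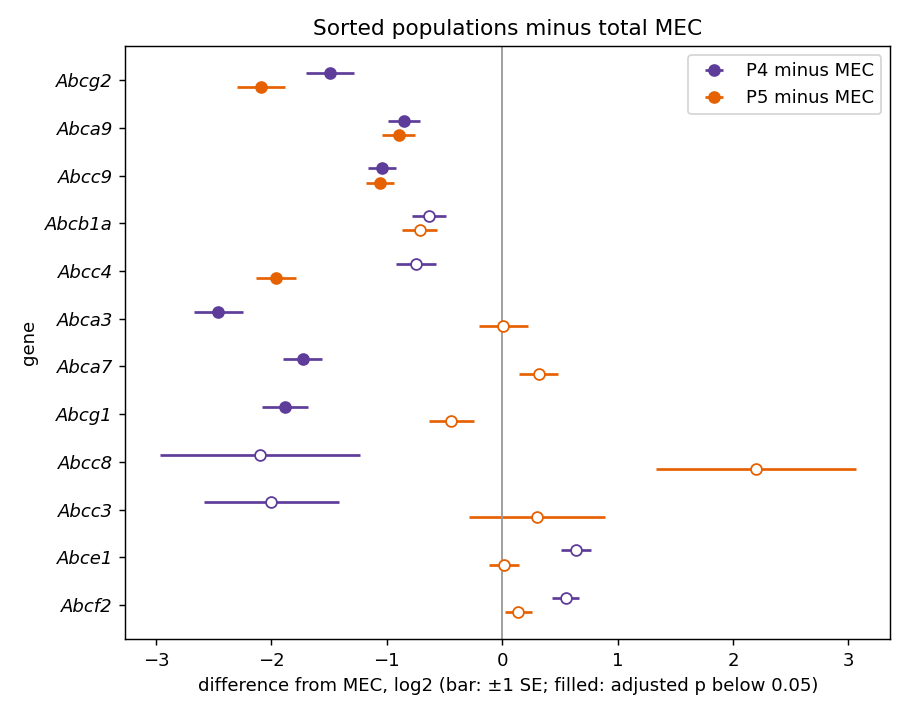
Differences from total MEC (log2, bar 1 SE) of 12 ABC genes for P4 (purple) and P5 (orange), filled where adjusted p is below 0.05. Abcg2, Abca9 and Abcc9 were called lower in both fractions, and Abca3, Abca7 and Abcg1 in P4, where they were also lower than in P5.

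**Figure D4:**
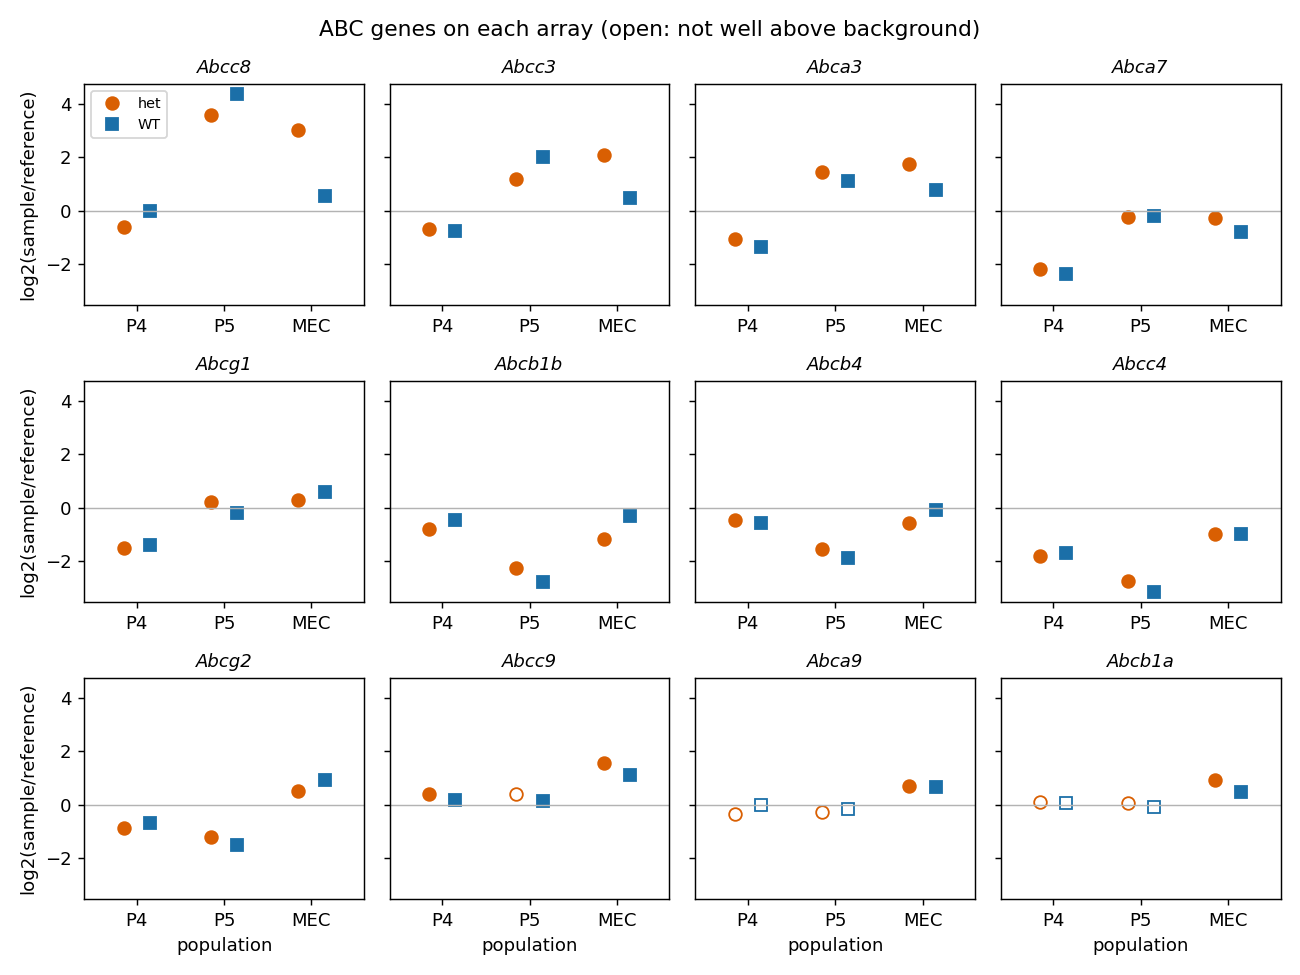
Log2(sample over reference) of 12 ABC genes on every array, het as circles and WT as squares, open where the spot was not well above background. Within P4 and P5 the genotypes lie close together for most of these genes, and in MEC Abcc8 is at 3.01 in het and 0.56 in WT.

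The genotype comparison asked whether losing 1 DNP63 allele altered these genes. Over all 3 populations 0 of 44 genes were called by limma, as were 0 of 25063 genes, with 5 of the 44 and 5242 of all genes at an unadjusted p below 0.05. The highest differences were 1.09 for Abca8a (SE 0.451, adjusted p 0.263) and 1.05 for Abca6 (SE 0.144, adjusted p 0.206), neighbours on chromosome 11 with Abca9 between them, and the lowest was -0.48 for Abca5 (SE 0.244, adjusted p 0.327), the next gene. Abca3 followed at 0.54 (adjusted p 0.212) on the high side. The het array lay at a later slide position than its WT array in each population, and an effect of position cannot be told apart from one of genotype. Leaving out either MEC array, 3 of the 44 genes (Abca5, Abca6 and Abca8a) and 835 of all 25063 genes were called. For 245 probes printed 10 times on each array, the spots of a probe within an array had an SD of 0.1. This spot scatter alone gives 0.142 for the difference of 2 spots. It leaves out variation between arrays, labellings and RNA samples, so it is no yardstick for differences between arrays.

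Abca8a, a member linked to lipid and drug transport, was at 4.12 in het P4 and 1.95 in WT P4, at 2.31 in het P5 and 1.08 in WT P5, and at 1.70 in het MEC and 1.82 in WT MEC. Abca6, a cholesterol-responsive member known from human cells, was at 1.86 in het P4 and 0.56 in WT P4, at 1.83 in het P5 and 0.69 in WT P5, and at 1.37 in het MEC and 0.65 in WT MEC. Both were thus higher in het in the sorted fractions, where 2 of 44 genes passed 2-fold in each, 4.55% against 5.85% of all genes in P4 and 2.53% in P5. Neither value has a replicate. Marker lists of other cells averaged higher in het on the same arrays, by 0.89 in P4 and 0.99 in P5 for 5 pericyte markers, by 0.44 and 0.91 for 7 fibroblast markers, by 0.70 and 0.82 for 5 adipocyte markers and by 0.64 and 0.53 for 7 endothelial markers. The 8 basal markers averaged 0.68 higher in P4 and 0.65 higher in P5, and 6 immune markers 0.27 and 0.19 higher. For 9 luminal markers the mean het minus WT was 0.28 in P4 and -0.03 in P5. Not every marker followed its list, and Dcn, Pdgfra and Cspg4 were lower in het P4 than in WT P4. The part of these markers in the Abca8a and Abca6 differences was not tested. Replacing the outlier backgrounds left Abca8a at 1.13 and Abca6 at 0.36 in P4. The Abca6 probe had a mean raw sample signal of 211, beside array medians of 113.2 to 188. The other Abca6 probe gave 0.23 in P4 and 0.04 in P5. With the scanner's ratio or the series table, neither Abca8a nor Abca6 passed 2-fold in P4.

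In MEC, 2 genes were at least 2-fold higher in het, 4.55% against 2.03% of all genes, and both stood lower on the P4 arrays than on the P5 arrays. Abcc8 was at 3.01 in het MEC and 0.56 in WT MEC, a difference of 2.45, and Abcc3 at 2.08 in het MEC and 0.47 in WT MEC, a difference of 1.61. In P4 and P5 the same 2 genes differed by -0.60 and -0.78 for Abcc8 and by 0.09 and -0.82 for Abcc3. The mean of 9 luminal markers was 3.84 in het MEC and 2.76 in WT MEC, a difference of 1.08, with Krt8 at 4.72 and 3.38 and Krt18 at 4.34 and 3.27. The fibroblast markers ran the other way, at 1.36 in het MEC and 2.10 in WT MEC. Their part in the Abcc8 and Abcc3 differences was not tested. Abca3 was next at 0.99, and Abcb1b lowest at -0.86. No ABC gene was 2-fold lower in het in any population, where 0.124% to 0.702% of all genes were.

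**Figure D5:**
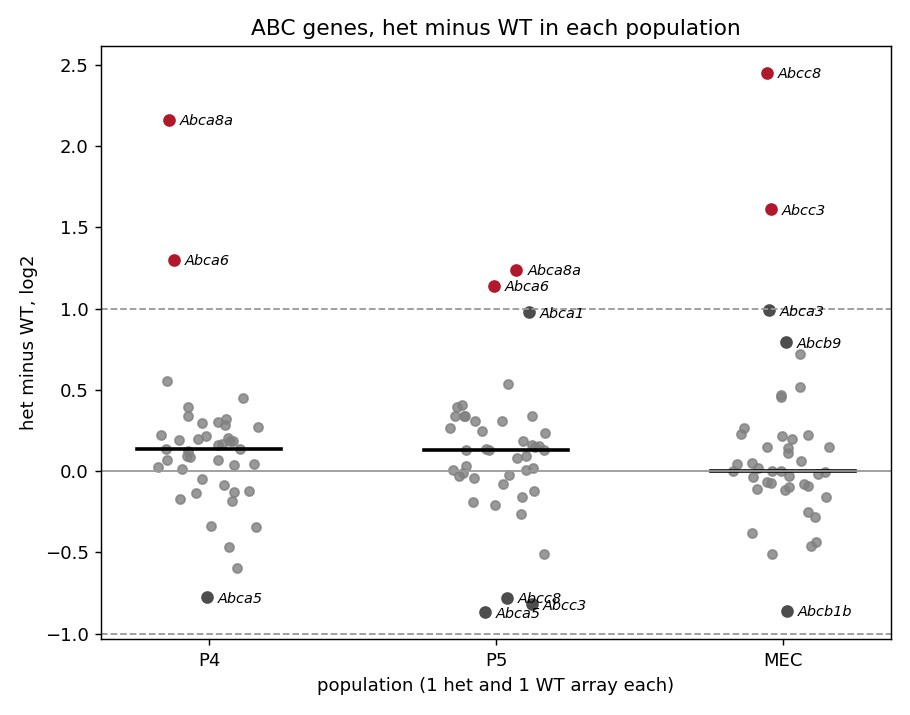
Difference het minus WT (log2) of the tested ABC genes reported here in each population, 1 array against 1, with the median as a black line and 2-fold as dashed lines. Abca8a and Abca6 lie above 1 in P4 and P5, and Abcc8 and Abcc3 in MEC.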

How the data were processed

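RNA was measured on 6 Agilent 2-colour arrays, 45018 spots each. Per the submitters' processing notes, the software was Agilent Feature Extraction 9.5.3.1. In the deposited scanner files stand each spot's mean signal and median local background as raw intensity, and a log10 ratio after the software's own correction. The deposited series table holds log2 ratios, which followed the scanner's ratios with r of 0.988 to 0.999 across probes. Between 74.3% and 89.8% of spots were well above background. Precision is limited by having 1 array per group.

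Normexp (offset 50) and loess within each array were run in R 4.3.3 with limma 3.58.1, with scanner-flagged spots removed and repeat spots averaged. Each array symbol was represented by its brightest probe. The additive limma model of population and genotype left 2 residual degrees of freedom, with Benjamini-Hochberg adjustment over all genes. Differences within 1 population are 1 array against 1. Genes with values are those called, the 5 highest and lowest of each contrast, those 2-fold apart between genotypes, and 7 often discussed transporters (Abcg2, Abcb1a, Abcb1b, Abcc1, Abca1, Abcg1, Abcc3). Abcc5, Abcd3, Abcd4 and Abcg8 were named after their values were seen. Some genes are counted but not reported here. The members and lists were chosen with earlier results of these data known.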

Additional observations from a re-analysis of the deposited data

Results flagged for a closer look

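For 3 genes the genotypes differed in opposite directions in 2 populations by more than 0.5 on the log2 scale, each from 1 array against 1. The difference between populations was not tested. Abcc8 differed by -0.60 in P4 and 2.45 in MEC, -3.05 apart, and by -0.78 in P5, -3.23 apart from MEC. Abcc3 differed by -0.82 in P5 and 1.61 in MEC, -2.43 apart. Abcb1b differed by 0.54 in P5 and -0.86 in MEC, 1.40 apart. Luminal markers averaged 1.08 higher in het MEC than in WT MEC, and their part in these differences was not tested.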

How the results depend on the processing

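The count of ABC genes called in P4 against P5 was 8 and became 2 with median centring, 5 with the mean over probes and 16 with the P4 and P5 arrays alone, and 0 to 16 when 1 array was left out. In P4 against MEC it was 6, and 12 with outlier backgrounds replaced, 10 with the scanner's ratio, the Cy5 level alone or the series table, 17 with median centring, 3 with the mean over probes, and 0 to 13 without 1 array. In P5 against MEC it was 4, and 7 with backgrounds replaced, 18 with median centring, 1 with the mean over probes, and 0 to 7 without 1 array. In het against WT it was 0, and 1 with offset 0, 15 with median centring, 3 with the P4 and P5 arrays alone, and 0 to 3 without 1 array. For P4 against P5 and het against WT, leaving out a MEC array gave the same fit as the P4 and P5 arrays alone. Counts called over all genes moved too. They were 2659 of 25063 in P4 against P5, 1759 in P4 against MEC, 1044 in P5 against MEC and 0 in het against WT. In the same order, median centring gave 906, 7083, 8304 and 7845, and the mean over probes 2192, 1156, 891 and 0. Replaced backgrounds gave 3779, 4497, 1603 and 0. Het against WT gave 424 with offset 0 and 835 with the P4 and P5 arrays alone. Nothing particular to the family is read from these counts. Median centring moved the median of all genes to -0.22 in P4 against MEC, -0.34 in P5 against MEC and -0.21 in het against WT. The 2-fold genotype count in P4, 2, became 1 (Abca8a) with backgrounds replaced, the mean over probes or Cy5 alone. It became 5 with the scanner's ratio or the series table, 2 higher in het and 3 lower, with neither Abca8a nor Abca6 among them. With median centring it became 22, 1 higher and 21 lower. In P5 it became 5 with the scanner's ratio or series table, 4 higher and 1 lower. It became 4 with offset 0, all higher, and 6 with median centring, 1 higher and 5 lower. It became 1 with the mean over probes (Abca8a, higher) and 1 with Cy5 alone (Abcc8, lower). With backgrounds replaced it stayed at 2, Abca1 and Abca8a. In MEC it became 6 with the scanner's ratio or series table, 3 higher and 3 lower, and 7 with offset 0, 6 higher and 1 lower. It became 4 with median centring, 2 higher and 2 lower, and 1 with the mean over probes (Abcc8, higher). The causes were not tested.

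Values that changed sign were all of uncalled differences. With median centring, P4 minus MEC became -0.68 for Abcc1, -0.51 for Abcf2, -0.65 for Abce1 and -0.72 for Abcb1b, P5 minus MEC became -0.97 for Abca7, -0.89 for Abcb9, -0.23 for Abcb8, -0.046 for Abca2 (Abca2 P5 minus MEC) and -0.81 for Abcc3, and het minus WT became -0.52 for Abca1, -0.37 for Abca3 and -0.56 for Abcc3. With Cy5 alone, Abca2 became -0.11 in P4 minus MEC and -0.18 in P5 minus MEC, and Abcc1 0.22 in P5 minus MEC. With the mean over probes Abcb1b became -0.070 in P4 minus MEC. Leaving out 1 array gave -0.34 (without het MEC) to 0.62 for Abcb1b in P4 minus MEC. It gave -0.030 (without WT P5) to 0.69 for Abcb9, -0.69 (without WT MEC) to 1.29 for Abcc3 and -0.26 to 0.093 (without WT MEC) for Abcc1 in P5 minus MEC. In het minus WT it gave -0.60 to 0.097 for Abcb1b, -0.69 to 0.93 for Abcc8, -0.31 to 0.061 for Abcg2, -0.21 to 0.13 for Abcg1 and -0.37 to 0.85 for Abcc3, where leaving out a MEC array turned the sign of all 5. In het minus WT, Abcg1 became 0.049 with backgrounds replaced. With the P4 and P5 arrays alone Abcb1b became 0.097, Abcc8 -0.69, Abcg2 0.061, Abcg1 0.13 and Abcc3 -0.37. Those values are the ones without a MEC array, from the same fit, and no separate check.

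No paired analysis was possible because every group holds only replicate 1, and groups need at least 2 shared replicate numbers for a block. The additive fit already compares populations within genotype.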
